A study of Mus musculus with 41 samples.

Results

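The miR-126 gene was represented by 5 of the 637 probe rows of a mouse spleen miRNA array, chosen as every row whose name, with case ignored, begins with mmu-mir-126 or mmu-mir-123 and any suffix after the number. The rows named mmu-mir-126 are miR-126*-5p-a, miR-126-5p-a and miR-126-3p-a, and the rows named mmu-mir-123 are miR-123-a and miR-123-p. The name miR-123 was formerly given to the 5′ arm of the same hairpin, also written miR-126*. The rule used names only, with no measured value, but it was chosen with earlier results of these data known. Neither the endings -a and -p nor the probe sequences are explained in the labels or the table.

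Spleen RNA of C57BL mice was converted to biotin-labelled cDNA and hybridised to 41 one-channel arrays in 8 groups. Mice given C. parvum (the organism is spelled out no further in the labels) were set against saline controls in each of 4 genotypes. Wild type mice (WT, p53+/+NOS2+/+) gave 5 C. parvum and 5 control arrays, NOS2 knockouts (NOS2KO, p53+/+NOS2-/-) gave 5 and 5, p53 knockouts (p53KO, p53-/-NOS2+/+) gave 5 and 4, and double knockouts (DKO, p53-/-NOS2-/-) gave 6 and 6. Age, dose and time after treatment are not in the labels. The series design text counts 4 or 5 mice per grouping and does not mention the DKO groups, and no label ties an array to an animal, so p-values measure the spread between these samples. NOS2 is the nitric oxide synthase that macrophages induce on activation, and p53 is a transcription factor that responds to DNA damage and other stress.

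miR-126 is transcribed from within Egfl7, a gene expressed by endothelial cells, and is among the most abundant miRNAs of endothelium. Its 3′ arm strengthens the response to VEGF by repressing Spred1 and Pik3r2 and lowers the adhesion molecule VCAM-1, and its 5′ arm supports endothelial proliferation in mice by repressing Dlk1. Blood stem cells and megakaryocytes also express miR-126, and the spleen holds a dense bed of sinus endothelium together with megakaryocytes. The arrays carry no protein-coding transcript and no second miRNA that defines endothelium, so the endothelial origin of the signal could not be checked in these data.

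The sequences below show the hairpin, its 3′ arm and the 2 arms of the gene on the other strand; the 5′ arm, miR-126a-5p, is named only. They come from RefSeq (GRCm38.p6), where the gene is Mir126a at chr2:26591357-26591429 on the plus strand, inside Egfl7 at chr2:26581083-26592682. The table's names matched the 3 miR-126 rows and neither miR-123 row. In the hairpin, capitals mark miR-126a-3p, bases 46 to 67 of 73. In the second copy they mark the 23 bases on the 5′ side that are the reverse complement of miR-126b-3p, and in the mature miRNAs they mark the seed, bases 2 to 8. The miR-126b arms lie on the minus strand at the same place and are shown because 19 bases of miR-126b-5p pair with miR-126a-3p.
Mir126a hairpin: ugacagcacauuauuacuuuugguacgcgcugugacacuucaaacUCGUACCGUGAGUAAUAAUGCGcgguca
Mir126a hairpin, 5′ side: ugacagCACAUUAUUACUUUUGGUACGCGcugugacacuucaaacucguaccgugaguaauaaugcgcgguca
miR-126a-3p: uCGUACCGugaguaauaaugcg
miR-126b-5p: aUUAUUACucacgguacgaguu
miR-126b-3p: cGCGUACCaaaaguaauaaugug
Each of the 3 seeds occurred in 1 of the 1679 mature names of the table, so none of the 3 belongs to a larger seed family there.

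Levels below are quantile-normalized log2 signals, on a scale whose log base was inferred from the values and is not stated. An array gave values for 310 to 464 probes, and 227 probes had a value on all 41 arrays. The spleen markers miR-150 of lymphocytes, miR-223 of granulocytes and monocytes and miR-451 of erythroid cells had a value on all 41 arrays. The arrays fell into 2 sets that the labels do not name. All 18 arrays of set 1 had a value for miR-9*-3-3p-a and 0 of the 23 arrays of set 2 had one. Set 1 held the 10 WT arrays, the first 2 C. parvum arrays of NOS2KO, and from DKO C. parvum 6 and controls 1 to 5. The WT comparison therefore lay within set 1 and the p53KO comparison within set 2, while in DKO 5 of 6 treated arrays were in set 2 and 5 of 6 controls in set 1. WT control 2 stood apart with the fewest measured probes, 310.

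The 5 probes differed in how often they gave a value. miR-126*-5p-a, miR-126-5p-a and miR-123-a had a value on all 41 arrays. miR-123-p had one on 39, missing on WT C. parvum 4 and WT control 2. miR-126-3p-a, which by its name reads the 3′ arm shown in capitals in the first hairpin, had a value on only 4 arrays.

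The 4 values of miR-126-3p-a were 9.52 on DKO C. parvum 3, 9.94 on WT control 2, 9.80 on NOS2KO control 2 and 9.02 on DKO control 1. They fell on 1 of 21 treated arrays and 3 of 20 control arrays, too few for a test of this probe in any comparison. They were not near the dim end of their arrays: on the deposited scale each lay above 58.4% to 65.7% of the measured cells of its array. Neither labels nor table say what made the other 37 cells empty, and the 3′ arm is not described further.

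The signal of the 4 tested miR-126 and miR-123 probes was lower after C. parvum. By their names the tested -a probes all read the 5′ arm, on the same arrays, so they are not separate lines of evidence. The 3′ arm could not be tested. Averaged over the 4 genotypes, all 4 tested probes fell, miR-123-p by 0.75 ± 0.15, miR-126*-5p-a by 0.53 ± 0.08, miR-126-5p-a by 0.48 ± 0.11 and miR-123-a by 0.47 ± 0.08 (SE, log2 units). These are folds of 0.596, 0.694, 0.716 and 0.720, with adjusted p of 9.26e-05, 1.69e-06, 0.000289 and 8.2e-06 (limma, Benjamini-Hochberg over all probes tested). Of the 291 probes tested in this mean, 25.8% were called lower, and the median change of all of them was 0.074. All 4 falls also passed in each of the 8 other processing settings that could fit the mean (7 for miR-123-p) and with any single array left out. RNA came from whole spleen, so fewer cells of a type and less RNA per cell cannot be told apart.

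**Figure D1:**
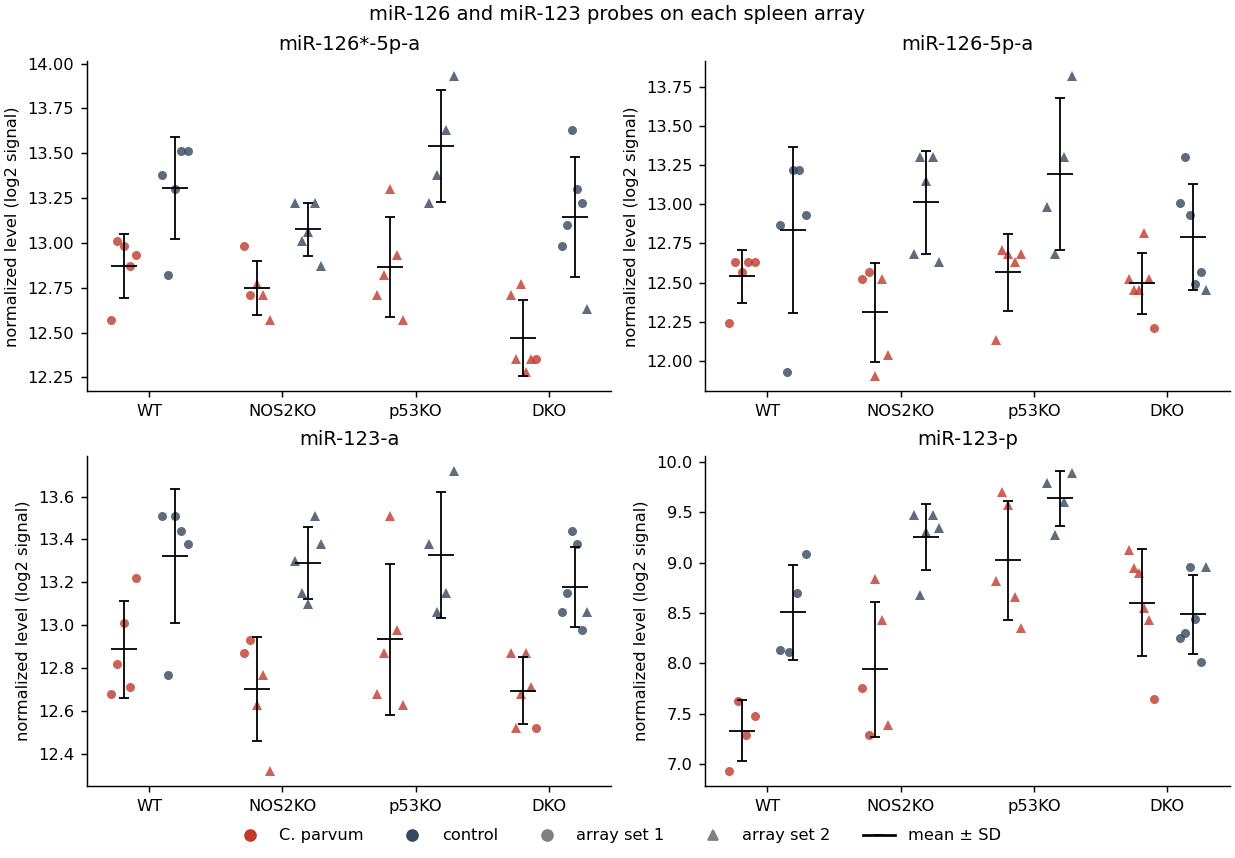
Normalized level (log2 signal) of the 4 tested probes on every array, by genotype, with C. parvum left of control; circles are arrays of set 1, triangles arrays of set 2, and bars the mean and SD. In the -a probes all 4 treated means stand below all 4 control means, while the 6 treated and 6 control DKO arrays overlap for miR-123-p.

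miR-126*-5p-a, named for the strand opposite the 3′ arm, fell in 3 of 4 genotypes. In WT its levels were 12.57, 13.01, 12.98, 12.87 and 12.93 on C. parvum arrays, against 13.38, 12.82, 13.30, 13.51 and 13.51 on controls. Only WT control 2 lay among the treated arrays, and the change was −0.43 ± 0.16 (adjusted p = 0.0401). On the deposited scale that array had 13.37, and the highest treated value of 12.78 lay below every control. The levels in NOS2KO were 12.98, 12.71, 12.77, 12.71 and 12.57 on C. parvum arrays, against 13.22, 13.01, 13.06, 13.22 and 12.87 on controls. These groups overlapped at 1 value of each, and the change of −0.33 ± 0.16 did not pass (adjusted p = 0.126), although it did on the deposited values (−0.50, adjusted p = 0.0122).

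The same probe in p53KO gave 12.71, 12.82, 13.30, 12.93 and 12.57 on C. parvum arrays, against 13.22, 13.38, 13.63 and 13.93 on controls. Only C. parvum 3 reached the controls, and the change was −0.67 ± 0.17 (adjusted p = 0.00508). In DKO it had a lowest level of 12.28, a median of 12.35 and a highest of 12.77 on 6 C. parvum arrays, against 12.63, 13.16 and 13.63 on 6 controls. Only DKO control 6, the 1 control of set 2, was as low as the treated arrays, and the change was −0.67 ± 0.15 (adjusted p = 0.00259). With the array set as a block the DKO change was −0.54 (adjusted p = 0.0979), and among set 2 alone it was −0.13, with that 1 control. The WT call was lost in 7 of 10 fits that left out an array (adjusted p up to 0.113, without C. parvum 1, 4 or 5 or control 1, 3, 4 or 5). Without WT control 2 the WT change was −0.55 and kept its call. The p53KO call was lost after median centring (−0.31, adjusted p = 0.119).

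miR-123-a, which carries the older name of the same arm, fell in WT, NOS2KO and DKO. In WT it gave 12.68, 12.82, 13.01, 12.71 and 13.22 on C. parvum arrays, against 13.51, 12.77, 13.51, 13.44 and 13.38 on controls. Again WT control 2 alone lay among the treated arrays, and the change was −0.43 ± 0.16 (adjusted p = 0.0409). On the deposited scale that array had 13.36 like its group, and the highest treated value of 12.92 lay below every control. In NOS2KO the levels were 12.87, 12.93, 12.63, 12.77 and 12.32 on C. parvum arrays, against 13.30, 13.15, 13.10, 13.51 and 13.38 on controls. Every treated array lay below every control, with a change of −0.59 ± 0.16 (adjusted p = 0.00828).

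In p53KO miR-123-a gave 12.68, 12.87, 13.51, 12.98 and 12.63 on C. parvum arrays, against 13.38, 13.06, 13.15 and 13.72 on controls. The groups overlapped through C. parvum 3, and the change of −0.40 ± 0.17 did not pass (adjusted p = 0.0821); without that array it was −0.54 and passed (adjusted p = 0.0135). In DKO it had a lowest level of 12.52, a median of 12.70 and a highest of 12.87 on 6 C. parvum arrays, against 12.98, 13.11 and 13.44 on 6 controls. The groups did not overlap, with a change of −0.48 ± 0.15 (adjusted p = 0.0301). With the set as a block the DKO change was −0.41 (adjusted p = 0.194). Its call was also lost without C. parvum 2 or 5 or control 3 or 4 (adjusted p up to 0.0772), and the WT call without C. parvum 1, 2 or 4 or control 1, 3, 4 or 5 (up to 0.0999). Without WT control 2 the WT change was −0.57 and kept its call.

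miR-126-5p-a fell in NOS2KO and p53KO. In NOS2KO its levels were 12.52, 12.57, 11.90, 12.52 and 12.04 on C. parvum arrays, against 12.68, 13.30, 13.15, 13.30 and 12.63 on controls. Every treated array lay below every control, with a change of −0.70 ± 0.22 (adjusted p = 0.0166, and 0.0508 without C. parvum 3). In p53KO the levels were 12.13, 12.71, 12.68, 12.63 and 12.68 on C. parvum arrays, against 12.98, 12.68, 13.30 and 13.82 on controls. Only p53KO control 2 reached the treated range, and the change was −0.63 ± 0.23 (adjusted p = 0.0363). That call was lost after median centring (−0.36) and without C. parvum 1, 4 or 5 or control 4 or 5, where the change was smallest at −0.42 without control 5 (adjusted p = 0.211).

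In WT miR-126-5p-a gave 12.24, 12.63, 12.57, 12.63 and 12.63 on C. parvum arrays, against 12.87, 11.93, 13.22, 13.22 and 12.93 on controls. The treated arrays lay below 4 of the 5 controls, and WT control 2 was the lowest of all 10. The change of −0.30 ± 0.22 did not pass (adjusted p = 0.302), and without WT control 2 it was −0.52 and passed (adjusted p = 0.0472). In DKO the probe had a lowest level of 12.21, a median of 12.48 and a highest of 12.82 on 6 C. parvum arrays, against 12.45, 12.75 and 13.30 on 6 controls. The groups overlapped widely, and −0.30 ± 0.20 did not pass (adjusted p = 0.348).

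miR-123-p showed the largest falls of the 4 probes in WT and NOS2KO and no fall past the threshold in DKO. Its levels in WT were 6.93, 7.63, 7.29 and 7.48 on the 4 measured C. parvum arrays, against 8.13, 8.11, 8.70 and 9.08 on the 4 measured controls. Every treated value lay below every control, with a change of −1.17 ± 0.33 (adjusted p = 0.00585). With the 2 empty cells set to a low value of 4.86 the change was −0.94 and did not pass (adjusted p = 0.226). In NOS2KO it gave 7.75, 7.29, 8.84, 8.43 and 7.39 on C. parvum arrays, against 9.47, 8.68, 9.30, 9.47 and 9.34 on controls. NOS2KO control 2 was the only control within the treated range, and the change was −1.31 ± 0.30 (adjusted p = 0.00134, and 0.0898 with empty cells of the table set low). The first 2 of these C. parvum arrays (7.75 and 7.29) were in set 1 and all 5 controls in set 2, where this probe read 0.79 higher. Over the 9 alternatives run, the NOS2KO change ranged from −1.49 to −0.99.

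In p53KO miR-123-p gave 8.82, 9.70, 9.57, 8.66 and 8.35 on C. parvum arrays, against 9.79, 9.27, 9.60 and 9.89 on controls. C. parvum 2 and 3 lay within the controls, and −0.61 ± 0.31 did not pass (adjusted p = 0.138). In DKO it had a lowest level of 7.65, a median of 8.72 and a highest of 9.12 on 6 C. parvum arrays, against 8.01, 8.37 and 8.96 on 6 controls. The groups overlapped fully, and 0.11 ± 0.27 did not pass (adjusted p = 0.814). The lowest DKO C. parvum array was number 6, the 1 treated array of set 1, and DKO control 6, the 1 control of set 2, shared the highest control level. With the set as a block the DKO change was −0.42 (adjusted p = 0.393).

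**Figure D2:**
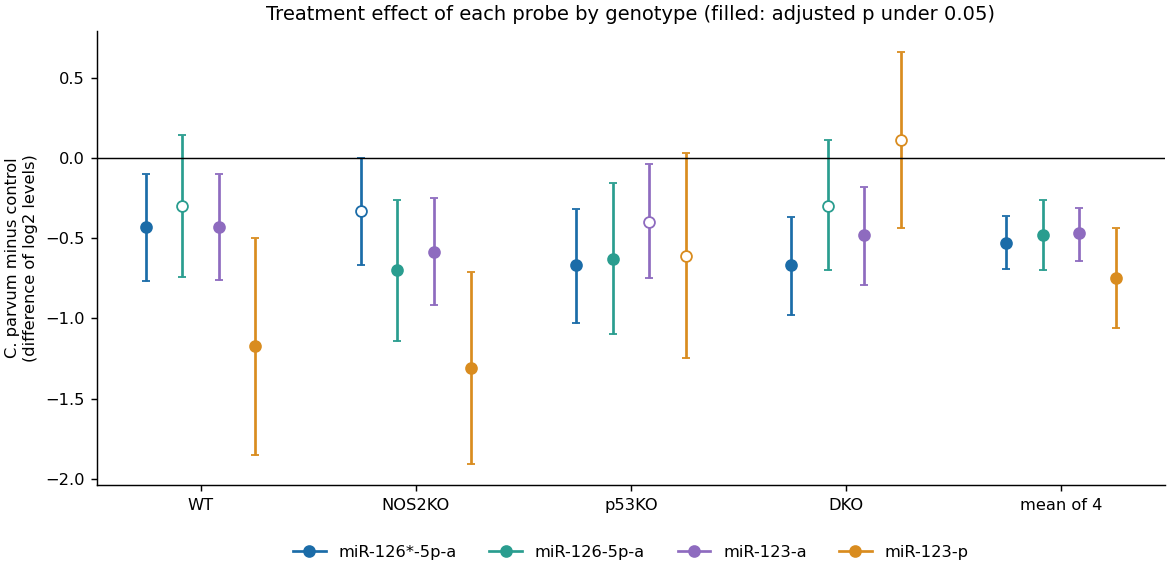
Treatment effect of each tested probe, C. parvum minus control in log2 units, by genotype and as the mean of 4 genotypes, with 95% confidence intervals; filled points passed an adjusted p of 0.05. Of the 16 genotype effects 15 lie below 0, the exception being 0.11 for miR-123-p in DKO, and all 4 means passed.

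Set against the whole array, members were called lower in 3 of 4 tested cases in WT, where 17.2% of 319 tested probes were lower, in 3 of 4 in NOS2KO (13%), in 2 of 4 in p53KO (14.5%) and in 2 of 4 in DKO (5.84%). None was called higher. Every treated array lay below every control for 1 member in WT (15% of tested probes), 2 in NOS2KO (7.23%), 0 in p53KO (11.4%) and 1 in DKO (2.12%). On the deposited values, before normalization, this held for 3 members in WT (19.4%), 4 in NOS2KO (12.1%), 1 in p53KO (16.4%) and 1 in DKO (1.86%). The scaling set the overall balance: of calls in the mean effect 92 were higher and 75 lower after quantile normalization, 65 and 102 on the deposited values (median change −0.076), and 125 and 62 after median centring (0.173). The 4 members stayed lower under all 3.

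The treated groups ranked below the control groups in every genotype for the 3 -a probes. For miR-123-a the order, lowest first, was C. parvum DKO (12.69 ± 0.16, SD), NOS2KO (12.70 ± 0.24), WT (12.89 ± 0.23) and p53KO (12.93 ± 0.35), then control DKO (13.18 ± 0.19), NOS2KO (13.29 ± 0.17), WT (13.32 ± 0.31) and p53KO (13.33 ± 0.29). No neighbouring pair in that order differed by more than both of their SDs, and the same held along the order of miR-126-5p-a, which had NOS2KO C. parvum lowest (12.31 ± 0.31) and p53KO control highest (13.19 ± 0.49). For miR-126*-5p-a, DKO C. parvum (12.47 ± 0.21) lay below NOS2KO C. parvum (12.75 ± 0.15), and WT C. parvum (12.87 ± 0.18) below NOS2KO control (13.08 ± 0.15), by more than both SDs. miR-123-p followed another order. WT C. parvum was lowest (7.33 ± 0.30), and both p53KO groups (9.02 ± 0.59 treated, 9.63 ± 0.27 control) stood above WT control (8.50 ± 0.47).

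Genotype, set against WT under the same treatment, moved no -a probe past the threshold. Of the 4 tested members, 0 were called between C. parvum NOS2KO and WT (2.37% of all tested probes called) and 0 between their controls (23.1%). miR-123-p alone was called between p53KO and WT, at 1.69 ± 0.31 under C. parvum (adjusted p = 0.000493, 23.6% of probes called) and 1.13 ± 0.33 in controls (adjusted p = 0.0134, 26.7%). It was also called between DKO and WT under C. parvum, at 1.27 ± 0.30 (adjusted p = 0.00392, 19.2%), and not in controls, at −0.02 ± 0.30, where no member was called (11.1%). WT arrays all belonged to set 1, while all p53KO arrays, all 5 NOS2KO controls and 5 of 6 DKO C. parvum arrays belonged to set 2. These comparisons with WT therefore also compare the sets. With the set as a block, calls over all probes between NOS2KO and WT controls went from 76 to 0. Between p53KO and WT they went from 84 to 1 in controls and from 78 to 2 under C. parvum.

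miR-123-p also differed between the array sets inside the groups that held both. It was higher in set 2 by 0.79 ± 0.24 (adjusted p = 0.0278), where 51 of 372 probes, 13.7%, differed. That estimate rests on few arrays. Set 1 held 2 of 5 NOS2KO C. parvum and 1 of 6 DKO C. parvum arrays, and set 2 held 1 of 6 DKO controls. The 3 -a probes did not pass, at −0.12, −0.21 and −0.18 for miR-123-a, miR-126*-5p-a and miR-126-5p-a. With the set as a block, the 3 genotype calls of miR-123-p were lost: 0.90 for p53KO under C. parvum (adjusted p = 0.35), 0.34 for p53KO controls (0.782) and 0.61 for DKO under C. parvum (0.40). For p53KO and WT, which share no set, that block takes the set difference from the NOS2KO and DKO groups.

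The size of the treatment effect was not shown to depend on genotype for any member. No member was called in the difference between the NOS2KO and WT effects (0.328% of tested probes called), the p53KO and WT effects (0%, 0 of 293 by limma, with 22 at an unadjusted p under 0.05) or the DKO and WT effects (5.13%). The largest difference was that of miR-123-p in DKO, 1.28 ± 0.43 (95% interval 0.41 to 2.15, adjusted p = 0.0653). It passed on the deposited values (1.48, adjusted p = 0.045), with array weights (1.36, 0.00668) and without WT control 1, DKO C. parvum 6 or DKO control 6 (lowest adjusted p 0.0271). With the set as a block it was no longer near the threshold (0.76, adjusted p = 0.282).

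Within an array, the probes were compared for unequal change by an exact two-sided permutation test of the difference between a pair of them, in 24 tests of 6 pairs in 4 genotypes. None passed after Benjamini-Hochberg adjustment (lowest adjusted p = 0.233), and 4 had an unadjusted p under 0.05. One of these was miR-123-p minus miR-126*-5p-a in DKO, which was 0.78 higher on treated arrays (exact p = 0.0346), and in NOS2KO the same difference was 0.98 lower, a change of −0.98 (exact p = 0.0238). This test takes no account of the array set, in which the DKO groups and the NOS2KO groups differ. In NOS2KO 2 of 5 treated arrays and 0 of 5 controls were in set 1. Set 2 minus set 1 was 0.79 for miR-123-p and −0.21 for miR-126*-5p-a. Treatment and set were therefore largely mixed in DKO. In NOS2KO they were mixed in part, as the other 3 treated arrays shared set 2 with all 5 controls. The part of the set in these differences was not tested. In WT, with 4 arrays a group, the smallest p the test allows was 0.0286, and this pair gave it with a change of −0.62.

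Across arrays the 3 -a probes varied together. Pearson's r was 0.82 for miR-123-a and miR-126*-5p-a, 0.73 for miR-123-a and miR-126-5p-a and 0.66 for miR-126*-5p-a and miR-126-5p-a (41 arrays), and 0.67, 0.56 and 0.48 after group means were removed. miR-123-p was less like them, at 0.41 to 0.44 (39 arrays). These are descriptions over arrays that share their normalization and the treatment. Of the 224 other probes measured on all arrays, the levels most like miR-123-a were those of miR-150 (r = 0.68), miR-29b-1 (0.67), miR-145 (0.67), miR-24-1-3p (0.65) and miR-181a-5p (0.65). Those most like miR-126*-5p-a were miR-29b-1 (0.65), miR-29b (0.63), miR-145 (0.63), miR-24-1-3p (0.62) and miR-181c (0.62). For miR-126-5p-a they were miR-150 (0.61), miR-24-1-3p (0.55), miR-145 (0.54), miR-191 (0.54) and miR-297b-p (0.49). Within groups these likenesses were weaker, between −0.12 for miR-297b-p and 0.53 for miR-150 with miR-123-a.

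Other miRNAs linked to endothelium and vessel growth did not move one way. Of 11 tested -a probes of that list, 5 were lower and 3 higher in the mean treatment effect, with a median of −0.05 against 0.074 for all tested probes. Among all 291 tested probes 75 were called lower and 92 higher. miR-222-a rose by 1.26 ± 0.12 and miR-221-a by 0.60 ± 0.10; both miRNAs restrain human endothelial cells through the receptor Kit. miR-24-2-a/p of the miR-23-27-24 clusters fell by 0.76 ± 0.14. The -p probes moved the other way for the same names, miR-221-p at −0.57 ± 0.16 and miR-24-2-p at 0.50 ± 0.09, and the third tested -p probe, miR-210-p, rose by 0.45 ± 0.09. The summed level of the list (8 -a probes on all arrays, log2 of the sum) was 16.06 to 16.27 on treated and 16.41 to 17.06 on control arrays in WT, 16.25 to 16.93 and 16.39 to 16.70 in NOS2KO, 16.24 to 16.65 and 16.57 to 16.85 in p53KO, and 16.29 to 16.86 and 16.55 to 16.93 in DKO. The groups overlapped in the 3 knockouts and not in WT.

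The -a probes for progenitors, stroma and lymphocytes mostly moved with the members, while erythroid and myeloid markers moved the other way. Of 12 tested -a probes for progenitors and megakaryocytes, cells that also carry miR-126, 8 fell and 0 rose (median −0.53), led by miR-99a (−1.11 ± 0.13), miR-100 (−0.86 ± 0.13) and miR-125b-2 (−0.72 ± 0.14). Among all 291 tested probes 25.8% were called lower and 92 were called higher. Probes were counted apart, and miR-10a and miR-125b had repeat probes among these falls. The 2 tested -p probes of that list rose, miR-196b-p by 0.53 ± 0.13 and miR-125b-1-p by 0.20 ± 0.09. The summed level of the -a probes was 13.78 to 14.07 on treated and 14.08 to 14.93 on control arrays in WT, 13.82 to 14.55 and 13.99 to 14.60 in NOS2KO, 13.90 to 14.73 and 14.59 to 15.05 in p53KO, and 14.08 to 14.67 and 13.96 to 15.00 in DKO. Of 8 tested -a probes for smooth muscle and stroma, 5 fell and 1 rose (median −0.50), with miR-145 of vascular smooth muscle at −0.90 ± 0.10 and miR-199a*-1-3p at −0.85 ± 0.14 and miR-199a*-3p at −0.77 ± 0.12. The riser was miR-497 at 0.68 ± 0.09, and miR-195 (−0.07 ± 0.15) and miR-199a-2-5p-ap (0.05 ± 0.13) were not called. Several of the falls were probes of the same miRNA, miR-199a*.

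Of 6 tested lymphoid -a probes 5 fell and 0 rose (median −0.73), with miR-181a-5p of developing lymphocytes at −1.12 ± 0.09, miR-150 of mature lymphocytes at −0.98 ± 0.14 and miR-181b-1 at −0.73 ± 0.13. Probes of miR-181b were counted apart, and 25.8% of all 291 tested probes were called lower. The 1 tested -p probe of the list, miR-181a-2-p, rose by 0.67 ± 0.12. Both erythroid -a probes tested in the mean rose, miR-486 by 2.06 ± 0.20 and miR-451 by 0.95 ± 0.17. Myeloid miR-223 rose by 0.70 ± 0.09, though in NOS2KO it did not pass (0.22, adjusted p = 0.4). In DKO alone fewer -a probes passed, where 5.84% of all tested probes were called lower. There 1 of 12 progenitor, 1 of 12 stromal and 3 of 6 lymphoid probes were lower and 1 stromal probe was higher. None of the 3 erythroid probes was called in DKO. The summed erythroid level was 14.74 to 15.14 on treated and 12.58 to 13.20 on control arrays in WT, 14.41 to 15.43 and 12.33 to 14.13 in NOS2KO, 13.23 to 15.29 and 12.07 to 13.31 in p53KO, and 14.41 to 14.95 and 13.97 to 14.57 in DKO. The summed lymphoid level was 14.31 to 14.56 on treated and 14.90 to 15.64 on control arrays in WT, 13.34 to 14.77 and 15.45 to 15.77 in NOS2KO, 14.78 to 15.21 and 15.51 to 16.04 in p53KO, and 14.47 to 15.06 and 14.79 to 15.75 in DKO. The part of these shifts in the falls of miR-126 and miR-123 was not tested.

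**Figure D3:**
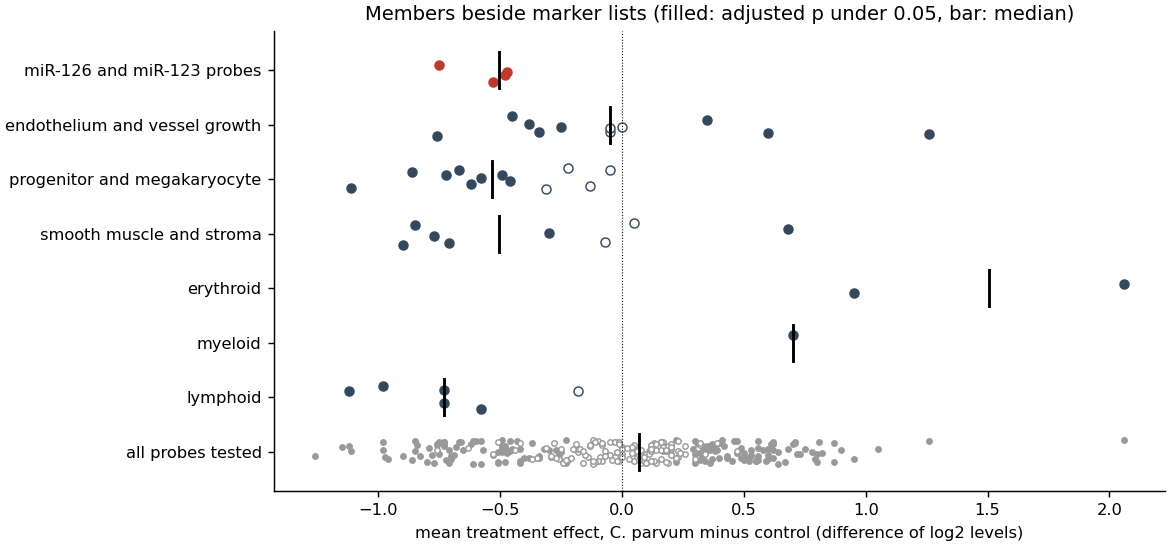
Mean treatment effect (C. parvum minus control, log2 units) of the 4 tested miR-126 and miR-123 probes beside the -a probes of 6 marker lists and all 291 tested probes; filled points passed an adjusted p of 0.05 and bars are medians. The 4 members lie between −0.75 and −0.47, among the falls of the progenitor, stromal and lymphoid lists and apart from the erythroid rises of 0.95 and 2.06. The endothelial list spans −0.76 to 1.26, with 5 probes called lower and 3 higher.

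Under the other scalings the mean falls kept their direction. Median centring gave smaller mean falls, −0.36 for miR-123-a, −0.37 for miR-126*-5p-a, −0.32 for miR-126-5p-a and −0.65 for miR-123-p. Values as deposited gave larger ones, −0.61, −0.62, −0.56 and −0.90 for the same probes.

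**Figure D4:**
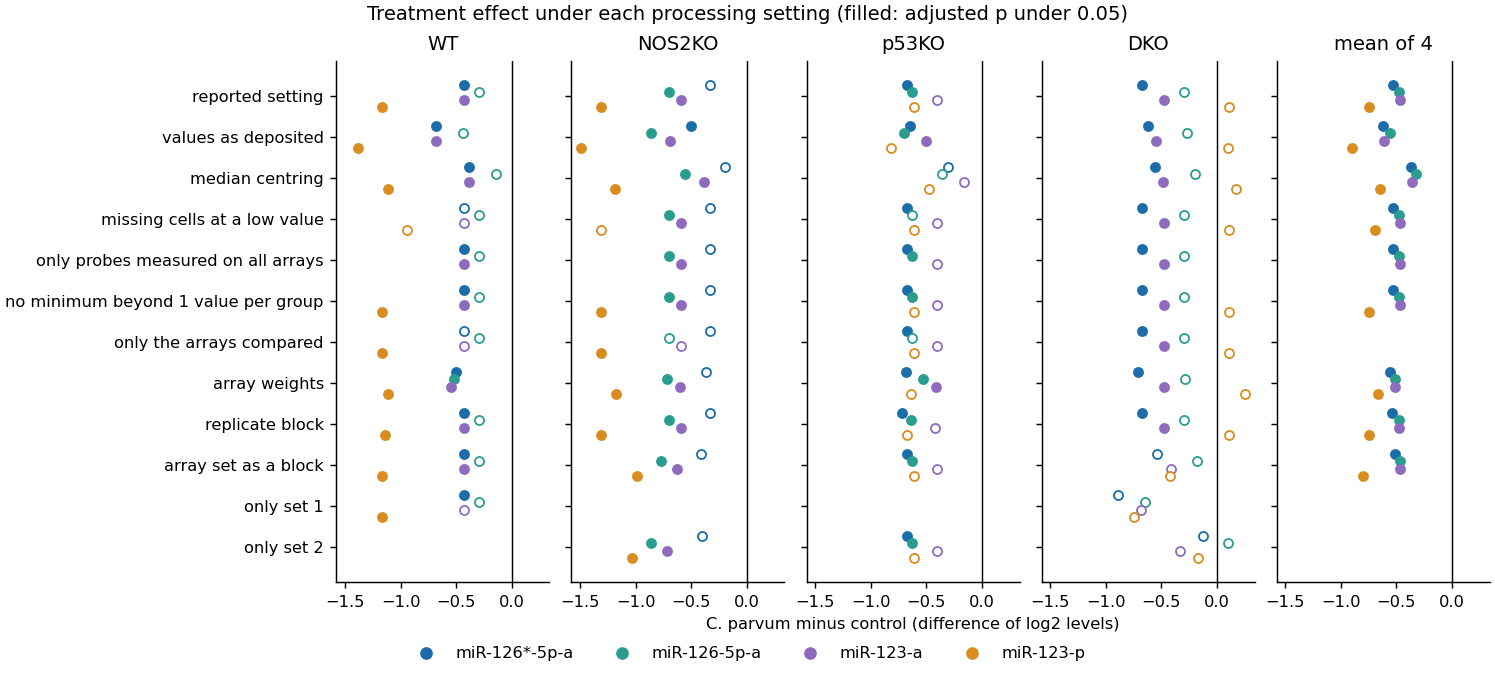
Treatment effect (C. parvum minus control, log2 units) of the 4 tested probes under each processing setting, by genotype and as the mean of 4; filled points passed an adjusted p of 0.05. All mean effects are filled, from −0.90 to −0.32, while no DKO point is filled with the array set as a block or within 1 set.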

How the data were processed

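The authors deposited 1 table of processed values, taken here as log2 signals of 637 probes on 41 arrays; the sources used here name no log base, scanner, background correction or normalization. Of 26117 cells, 10562 (40.4%) are empty. Array medians over the 227 probes measured on all arrays spread by 0.705, above the 0.5 allowed for leaving them untouched, so arrays were quantile normalized, with empty cells ranked below measured ones and left empty. Groups came from the labels. A linear model with 8 group means was fitted in limma 3.58.1 (R 4.3.3), variances were moderated, and p-values were adjusted by Benjamini-Hochberg over all probes of a comparison (threshold 0.05). At least 3 values per compared group were required, which 4 of the 5 members passed. Effects are C. parvum minus control, knockout minus WT, and differences of these; the mean effect weights genotypes equally.

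Named genes were the members, the 5 probes measured on all arrays most correlated with each fully measured member, and of each marker list the 3 with the largest mean effect (fewer where fewer were tested). Some list probes that moved against their list or were not called are named as well. No measured value entered the name rule that gave the members, but members and lists were chosen with earlier results of these data known. Alternatives were the deposited values, median centring, empty cells at a low value, other filters, only the arrays compared, array weights, a replicate block, the array set and leaving out each array. Leaving out an array kept the normalization of all 41. The fit was tested on simulated data. The number of arrays limits the precision. Replicate numbers did not pair the arrays, as deviations of same-numbered arrays had a median correlation of −0.01 over 134 pairs.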

Additional observations from a re-analysis of the deposited data

Results flagged for a closer look

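In 5 of 32 combinations of probe and group tested, the lowest array stood away from the others by Dixon's test; chance gives about 1 in 20 groups. WT control 2, the array with the fewest measured probes, had 12.77 for miR-123-a (next control 13.38) and 11.93 for miR-126-5p-a (next 12.87). On the deposited values it had 13.36 for miR-123-a, where the WT controls reached 13.45, so it stood apart for that probe only after normalization. For miR-126-5p-a it was also the lowest control as deposited, at 12.21. WT C. parvum 1 had 12.24 for miR-126-5p-a (next treated array 12.57), and p53KO C. parvum 1 had 12.13 for the same probe (next 12.63). NOS2KO control 2 had 8.68 for miR-123-p (next control 9.30).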

How the results depend on the processing

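Under every alternative run, the mean treatment effects of the 4 tested members kept their direction and their call. In single genotypes the -a probes stayed lower after C. parvum in every setting run, except miR-126-5p-a in DKO within set 2. The cause of the shifts below was not tested, apart from fewer arrays or probes entering a fit. Within set 1 DKO has 1 treated array and within set 2 it has 1 control, assumed to vary like the other groups. The number of arrays limits the precision, and miR-126-3p-a, with values on 4 arrays, could not be tested. Same-numbered arrays are not paired, and the replicate block changed no call of a member; with it miR-126*-5p-a changed by −0.43 in the WT effect, as without it. Counts of calls as reported were 107 for the WT effect, 86 for the NOS2KO effect, 92 for the p53KO effect, 50 for the DKO effect, 167 for the mean effect, 8 for NOS2KO over WT under C. parvum, 76 for NOS2KO over WT in controls, 1 for the NOS2KO less the WT effect, 78 for p53KO over WT under C. parvum, 84 for p53KO over WT in controls, 0 for the p53KO less the WT effect, 66 for DKO over WT under C. parvum, 38 for DKO over WT in controls and 16 for the DKO less the WT effect.

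On the deposited values, counts of calls moved to 26 for the DKO effect, 4 for NOS2KO over WT under C. parvum, 0 for the NOS2KO less the WT effect and 26 for the DKO less the WT effect. Gained calls were miR-126*-5p-a −0.50 for the NOS2KO effect, miR-123-a −0.50 for the p53KO effect and miR-123-p 1.48 for the DKO less the WT effect. Signs turned at miR-126*-5p-a 0.19 for p53KO over WT under C. parvum, miR-126-5p-a 0.18 for DKO over WT under C. parvum, miR-126-5p-a 0.01 for DKO over WT in controls, miR-126*-5p-a 0.03 for the p53KO less the WT effect and miR-123-a 0.13, miR-126*-5p-a 0.06 for the DKO less the WT effect. After median centring, counts of calls moved to 0 for the NOS2KO less the WT effect. The calls lost were miR-126*-5p-a −0.31, miR-126-5p-a −0.36 for the p53KO effect. Gained calls were miR-126*-5p-a −0.42 for DKO over WT under C. parvum. Signs turned at miR-123-a −0.01 for p53KO over WT under C. parvum, miR-123-a −0.24, miR-126*-5p-a −0.14 for p53KO over WT in controls, miR-126-5p-a 0.01 for DKO over WT in controls, miR-123-a 0.01 for the NOS2KO less the WT effect, miR-126*-5p-a 0.08 for the p53KO less the WT effect and miR-126-5p-a −0.06 for the DKO less the WT effect. With empty cells at a low value, counts of calls moved to 33 for the DKO effect and 3 for the p53KO less the WT effect. The calls lost were miR-123-a −0.43, miR-123-p −0.94, miR-126*-5p-a −0.43 for the WT effect, miR-123-p −1.31 for the NOS2KO effect and miR-126-5p-a −0.63 for the p53KO effect. Gained calls were miR-123-p 1.47 for NOS2KO over WT in controls. Signs turned at miR-123-p 0.71 for DKO over WT in controls. With only probes measured on all arrays, counts of calls moved to 5 for NOS2KO over WT under C. parvum and 4 for the NOS2KO less the WT effect. With only the arrays compared, counts of calls moved to 39 for the NOS2KO effect, 0 for NOS2KO over WT under C. parvum, 48 for NOS2KO over WT in controls, 39 for p53KO over WT in controls and 14 for DKO over WT in controls. Lost calls were miR-123-a −0.43, miR-126*-5p-a −0.43 for the WT effect, miR-123-a −0.59, miR-126-5p-a −0.70 for the NOS2KO effect and miR-126-5p-a −0.63 for the p53KO effect. With array weights, counts of calls moved to 108 for the DKO effect, 23 for NOS2KO over WT under C. parvum, 122 for DKO over WT under C. parvum, 60 for DKO over WT in controls, 3 for the NOS2KO less the WT effect and 47 for the DKO less the WT effect. Gained calls were miR-126-5p-a −0.52 for the WT effect, miR-123-a −0.41 for the p53KO effect, miR-126*-5p-a −0.42 for DKO over WT under C. parvum, miR-123-p 0.87 for NOS2KO over WT in controls and miR-123-p 1.36 for the DKO less the WT effect. Signs turned at miR-123-a −0.02 for p53KO over WT under C. parvum, miR-126-5p-a 0.01 for DKO over WT under C. parvum, miR-123-a −0.17 for p53KO over WT in controls, miR-123-p 0.00 for DKO over WT in controls and miR-123-a 0.07 for the DKO less the WT effect. With the replicate block, signs turned at miR-126-5p-a 0.02 for DKO over WT under C. parvum and miR-123-p 0.05, miR-126-5p-a 0.02 for DKO over WT in controls. With the array set as a block, counts of calls moved to 10 for the DKO effect, 1 for NOS2KO over WT under C. parvum, 2 for p53KO over WT under C. parvum, 6 for DKO over WT under C. parvum, 0 for NOS2KO over WT in controls, 1 for p53KO over WT in controls, 3 for the NOS2KO less the WT effect and 9 for the DKO less the WT effect. Lost calls were miR-123-a −0.41, miR-126*-5p-a −0.54 for the DKO effect, miR-123-p 0.90 for p53KO over WT under C. parvum, miR-123-p 0.61 for DKO over WT under C. parvum and miR-123-p 0.34 for p53KO over WT in controls. Signs turned at miR-123-p −0.42 for the DKO effect, miR-126*-5p-a 0.00 for NOS2KO over WT under C. parvum, miR-126*-5p-a 0.20 for p53KO over WT under C. parvum, miR-126-5p-a 0.11 for DKO over WT under C. parvum, miR-123-a 0.08, miR-123-p −0.04 for NOS2KO over WT in controls, miR-123-p 0.18 for the NOS2KO less the WT effect and miR-123-a 0.02 for the DKO less the WT effect. Within set 1, counts of calls moved to 0 for the DKO effect, 0 for NOS2KO over WT under C. parvum, 21 for DKO over WT under C. parvum and 31 for the DKO less the WT effect. The calls lost were miR-123-a −0.43 for the WT effect, miR-123-a −0.68, miR-126*-5p-a −0.89 for the DKO effect and miR-123-p 0.31 for DKO over WT under C. parvum. The sign turned for miR-123-p −0.75 for the DKO effect, miR-123-a 0.01, miR-126-5p-a 0.01 for NOS2KO over WT under C. parvum, miR-126-5p-a 0.02 for DKO over WT in controls and miR-126-5p-a −0.35 for the DKO less the WT effect. Within set 2, counts of calls moved to 55 for the NOS2KO effect and 2 for the DKO effect. Lost calls were miR-123-a −0.33, miR-126*-5p-a −0.13 for the DKO effect. Signs turned at miR-123-p −0.17, miR-126-5p-a 0.10 for the DKO effect. With each array left out in turn, counts ranged over 60 to 111 for the p53KO effect, 24 to 61 for the DKO effect, 1 to 16 for NOS2KO over WT under C. parvum, 48 to 83 for NOS2KO over WT in controls, 52 to 84 for p53KO over WT in controls, 17 to 51 for DKO over WT in controls, 0 to 6 for the NOS2KO less the WT effect and 11 to 30 for the DKO less the WT effect. Changes ranged over miR-123-a −0.57 to −0.38, miR-126*-5p-a −0.55 to −0.36, miR-126-5p-a −0.52 to −0.20 for the WT effect, miR-126-5p-a −0.80 to −0.60 for the NOS2KO effect, miR-123-a −0.54 to −0.27, miR-126-5p-a −0.80 to −0.42 for the p53KO effect, miR-123-a −0.52 to −0.43 for the DKO effect, miR-123-a −0.10 to 0.12, miR-126*-5p-a −0.11 to 0.07, miR-126-5p-a −0.05 to 0.14 for p53KO over WT under C. parvum, miR-126-5p-a −0.12 to 0.01 for DKO over WT under C. parvum, miR-123-a −0.17 to 0.01, miR-123-p 0.61 to 0.94, miR-126-5p-a −0.05 to 0.27 for NOS2KO over WT in controls, miR-123-a −0.13 to 0.09 for p53KO over WT in controls, miR-123-p −0.15 to 0.18, miR-126-5p-a −0.27 to 0.05 for DKO over WT in controls, miR-123-p −0.36 to 0.02 for the NOS2KO less the WT effect, miR-123-a −0.11 to 0.17 for the p53KO less the WT effect and miR-123-a −0.11 to 0.08, miR-123-p 1.09 to 1.47, miR-126-5p-a −0.10 to 0.23 for the DKO less the WT effect.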
